A study of Mus musculus with 24 samples.

Results

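The genotype comparison after heat shock (HS) set the livers of 3 PPARα-null mice against those of 3 wild-type mice, 6 of the 24 arrays of the study, with 1 mouse per array. The members are the arrays that the labels name as PPARα KO or WT after HS with no Wyeth compound, and all 12422 probe sets other than the platform's own AFFX controls were compared. The 4 groups used here were PPARα-null HS mice (16, 17 and 18), wild-type HS mice (4, 5 and 6), PPARα-null control mice (13, 14 and 15) and wild-type control mice (1, 2 and 3). All were males, 9 to 12 weeks old, of a mixed SV129/C57BL/6 background, fed NIH-07 chow as the control diet. HS mice spent 40 minutes at 42 °C and control mice stayed at room temperature. Livers for the arrays were taken 4 hours after HS by the text of the study, while its methods and the labels list later times as well. The PPARα-null mice lack the receptor in every tissue from birth, so the comparison covers the lasting state of the strain and its answer to heat. Nothing in the labels ties mice to litters or days. The question was how far the liver transcriptome after heat depended on PPARα.

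PPARα is a nuclear receptor that binds fatty acids and, with its partner RXR, drives the genes with which hepatocytes take up and burn fat in peroxisomes, mitochondria and microsomes. Heat unfolds proteins and activates HSF1, which binds inverted repeats of the unit nGAAn and raises the genes of chaperones, the proteins that refold or hold others. Mice without PPARα store fat in the liver when fasted.

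Intensities are given after quantile normalization, in the array's own units, with a floor of 15.7 below which no level can be read. A log2 difference is PPARα-null minus wild-type, and a probe set was called at a limma adjusted p under 0.05 over all probe sets (n = 3 mice per group). A fold against a group that lies at the floor in all mice is a lower bound, and since such a group does not vary its p-value can be too small. Each gene was read from its brightest probe set unless a dimmer one is named, and the largest differences were taken over all probe sets. In whole liver, fewer cells of a type and less RNA per cell cannot be told apart.

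*Ppara* itself read 134, 142 and 210.2 in PPARα-null HS mice, against 306, 181 and 330.4 in wild-type HS mice (log2 difference -0.73, SE 0.22, adjusted p = 0.0316). Wild-type HS mouse 5 lay within the range of the PPARα-null HS mice, so the groups overlapped. In control mice the gene read 185, 174 and 152 in PPARα-null control mice, against 315, 298 and 357 in wild-type control mice (log2 difference -0.92, adjusted p = 0.0594). The null strain kept a signal well above the floor, and whether the probe set lies in the removed part of the gene is not stated in the labels or methods. In all 6 livers *Alb*, which encodes serum albumin, read between 8412 and 9080, among the brightest values of the array. Quantile normalization gives all arrays the same set of values, so readings this bright can differ little. Of 7 hepatocyte genes measured 2 were called lower (*Apob* and *Ahsg*) and none was at the floor. Their summed level ran from 27630 to 28790 in PPARα-null HS mice and 30260 to 31140 in wild-type HS mice, and overlapped in control mice.

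The PPARα-null HS arrays stood apart in a way that must be read beside every result. On this platform, an Affymetrix U74Av2 array, a probe set with the suffix _f_at holds probes shared by a gene family, and one with the plain suffix _at holds probes for 1 gene. The median deviation of the _f_at probe sets from their mean over all arrays, minus that of the _at probe sets, was 0.276, 0.323 and 0.143 (log2) in PPARα-null HS mice 16, 17 and 18, against -0.0828, -0.0635 and -0.0195 in wild-type HS mice 4, 5 and 6, and lay between -0.12 and 0.0668 on the other 18 arrays. Among probe sets whose mean was above 63.0, 29.9% of 402 _f_at probe sets were called higher and 8.71% lower, against 10.2% and 17.9% of 3404 _at probe sets. In control mice the gap was smaller, at 0.048, -0.027 and 0.0668 in PPARα-null mice, against -0.074, -0.095 and -0.12 in wild-type mice, without overlap. The median log2 genotype difference of these _f_at probe sets was 0.281 after HS and 0.116 in control mice. The gap and the group cannot be told apart with these arrays. Of the 159 probe sets that the naming rule picked, 64 kept their call without mice 16 and 17 and 7 kept it with the gap as a covariate. The part of the gap in single results was not tested.

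**Figure D1:**
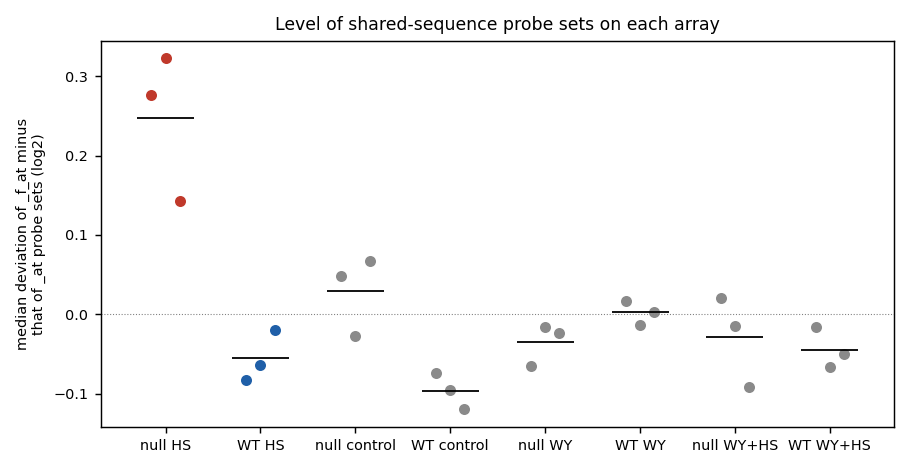
The gap between family probe sets and single-gene probe sets on each of the 24 arrays, as the median log2 deviation of _f_at minus that of _at probe sets, with 1 point per mouse and a line at the group mean. PPARα-null HS mice 16 and 17 lie at 0.276 and 0.323 and mouse 18 at 0.143, above the highest other array at 0.0668.

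Differing probe sets of 1 gene also went apart. Genes with at least 2 called bright probe sets numbered 59, and in 20 of them the probe sets had opposite signs. *Actb*, which encodes β-actin, was one: its brightest probe set, of the _f_at kind, read 1124, 1391 and 1148 in PPARα-null HS mice, against 673, 688 and 681 in wild-type HS mice, and another read 239, 176 and 329.8 in PPARα-null HS mice and 479, 582 and 554 in wild-type HS mice. Of 144 other bright probe sets of called genes, 78 (54.2%) had the sign of the brightest and 39 (27.1%) were called with it. Wild-type HS mouse 5 also differed from its group: its *Cyp4a10*, *Cyp4a14* and *Srebf1* were the highest of the 6 livers and its *Hsph1* the lowest.

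Of the 159 probe sets, 28 lost their call without wild-type HS mouse 4, 22 without mouse 5, 22 without mouse 6, 31 without PPARα-null HS mouse 16, 34 without mouse 17 and 14 without mouse 18. Among those of the 159 described here, the calls of *Ppara*, *Gpr162*, *Lpl*, *Srebf1*, *Gpam*, *Nsdhl*, *Cyp7a1*, *Abcc3*, *St13*, *Dnajc5*, *Cacybp*, *Pfdn2*, *Pfdn6*, *Lonp1*, *Psmc4*, *Atf3*, *Gadd45a*, *Gstk1*, *Serpina1b*, *Cox6a2*, *Mmut*, *Keg1*, *Cyp4f13*, *Thra*, *Rora*, *Csnk1d*, *Col1a1*, *Cd74*, *Vcl*, *Eif4b*, *Farsa*, *Ahsg* and *Myh1* ended without at least 1 single mouse. Genes described after their values were seen, such as *Hspa5*, are outside the 159, and absence from this list says nothing about their calls. Without mouse 5 the adjusted p was 0.156 for *Abcc3*, 0.056 for *Cyp7a1*, 0.0698 for *Lonp1*, 0.126 for *Psmc4* and 0.0722 for *Dnajc5*. Of the largest differences, those of *Igfbp1*, *Cd4*, *Ctnna1*, *H2-Aa*, *Gpr162*, *Mmp12*, *Ercc2*, *Saa4*, *Atp6v0e2*, *Chrne* and *Cyp4a14* were not called without mice 16 and 17.

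After HS 1839 probe sets were called, 14.8% of those tested, with 884 higher (7.12%) and 955 lower (7.69%) in PPARα-null mice. At an unadjusted p under 0.05 there were 3095. The count was 1205 without mouse 17, 598 without mice 16 and 17, 711 with only the 6 arrays fitted, and 28 with the gap as a covariate. Of the probe sets called higher, 308 differed at least 2-fold and 45 at least 4-fold, and in 131 all wild-type HS mice lay at the floor. Of those called lower, 417 differed at least 2-fold and 86 at least 4-fold. The groups did not overlap in 817 of the 884 and 886 of the 955. Over all probe sets, 13.0% had every PPARα-null HS mouse above every wild-type HS mouse and 12.1% had every one below. By gene, 651 of 8251 were called higher (7.89%) and 733 lower (8.88%), the shares set beside the gene groups below. They include genes that could not be called: of the 12422 probe sets 3845 lay at the floor on all 6 HS arrays. The shares are therefore low marks for gene groups that lie mostly above the floor. Among the _at probe sets with a mean above 63.0, 10.2% were called higher and 17.9% lower.

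**Figure D2:**
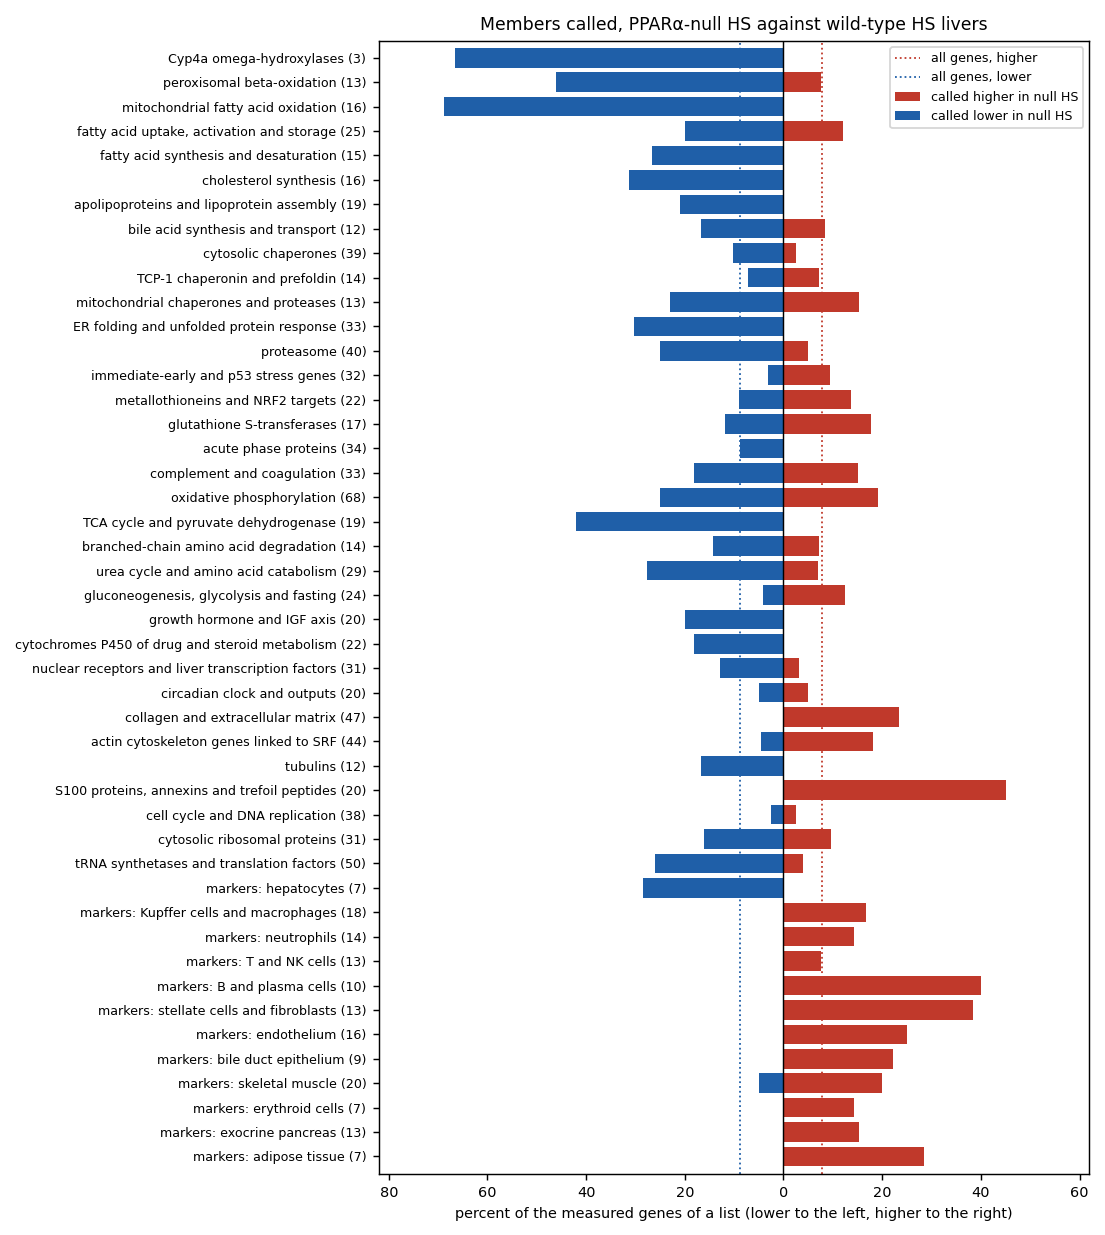
Percent of the measured genes of each group called lower (to the left) and higher (to the right) in PPARα-null HS livers than in wild-type HS livers, with the number measured in parentheses and dotted lines at the share among all 8251 genes. The 2 fatty acid oxidation groups reach furthest to the left beside the 3 Cyp4a genes, and the S100, annexin and trefoil group furthest to the right.

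Fatty acid oxidation was the group most often lower. Of 32 measured genes of ω-hydroxylation, peroxisomal and mitochondrial β-oxidation, 19 (59.4%) were called lower, and 14 of these were called lower in control mice too, where 0.618% of all genes were. The interaction, which tests whether the genotype difference after HS differed from that in control mice, was called for 1 of the 19, lower, against 1.09% of all genes. It was called higher, against 0.788% of all genes, for 2 other peroxisomal genes, *Acaa1a* and the brightest probe set of *Acaa1b*. *Cyp4a10*, a microsomal ω-hydroxylase and a standard PPARα target, read 20.5, 24.8 and 15.7 in PPARα-null HS mice, against 317, 1192 and 353 in wild-type HS mice (log2 difference -4.67, SE 0.66, adjusted p = 0.000143). Every PPARα-null HS mouse lay at or near the floor, so the size of the difference is not well set. Its probe set is of the _f_at kind and close family members may share it. *Cyp4a14*, its neighbour in the gene cluster, read 68, 83.2 and 41.6 in PPARα-null HS mice, against 229, 1837 and 273 in wild-type HS mice (log2 difference -2.98, SE 0.70, adjusted p = 0.00764). Mouse 5 carried much of this value: without it the log2 difference was -2.02 (adjusted p = 0.0369). In control mice *Cyp4a10* differed nearly as much (log2 difference -4.34, adjusted p = 0.00301).

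In the peroxisome, 6 of 13 measured β-oxidation genes were called lower and 1 higher. *Ech1*, a dienoyl-CoA isomerase, read 135, 139 and 242 in PPARα-null HS mice, against 634, 664 and 686 in wild-type HS mice (log2 difference -2.0, SE 0.16, adjusted p = 6.69e-07). *Eci2*, an enoyl-CoA isomerase, read 187, 207 and 239.9 in PPARα-null HS mice, against 588, 653 and 868 in wild-type HS mice (log2 difference -1.72, SE 0.13, adjusted p = 3.78e-07). *Acot8*, a thioesterase, read 30.6, 40.5 and 52.5 in PPARα-null HS mice, against 113, 92.6 and 132 in wild-type HS mice (log2 difference -1.47, SE 0.23, adjusted p = 0.000303). In these genes the groups did not overlap. *Hsd17b4*, the D-bifunctional protein, was the most evenly read of the group, at 377, 363 and 431 in PPARα-null HS mice, against 1002, 967 and 1002 in wild-type HS mice (log2 difference -1.35, SE 0.09, adjusted p = 1.18e-07). Its interaction was called (interaction -0.57 on the log2 scale, adjusted p = 0.0335), with control values of 602, 660.4 and 593 in PPARα-null control mice, against 942, 1124 and 1114 in wild-type control mice. *Acaa1a*, a thiolase called higher and named here after its values were seen, read 1858, 1991 and 1772 in PPARα-null HS mice, against 1198, 1499 and 1103 in wild-type HS mice (log2 difference 0.58, SE 0.12, adjusted p = 0.00333). The related thiolase *Acaa1b* had a dim probe set at 32.8, 15.7 and 28.7 in PPARα-null HS mice, against 248, 349 and 261 in wild-type HS mice, while its brighter probe set read 1676, 1889 and 1943 in PPARα-null HS mice and 1750, 2145 and 1837 in wild-type HS mice (log2 difference -0.05), so the 2 probe sets did not give 1 answer.

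In mitochondria, 11 of 16 measured genes were called lower and none higher, with a median log2 difference of -0.611 after HS and -0.608 in control mice. *Etfdh*, which passes electrons from acyl-CoA dehydrogenases to ubiquinone, read 70.4, 63.9 and 74.7 in PPARα-null HS mice, against 282, 267 and 277 in wild-type HS mice (log2 difference -1.99, SE 0.15, adjusted p = 3.78e-07). *Eci1*, the mitochondrial enoyl-CoA isomerase, read 150.0, 208 and 134 in PPARα-null HS mice, against 471, 584 and 539 in wild-type HS mice (log2 difference -1.72, SE 0.15, adjusted p = 1.62e-06). *Cpt2*, the inner-membrane carnitine palmitoyltransferase, read 284, 314 and 419 in PPARα-null HS mice, against 909, 979.7 and 1010 in wild-type HS mice (log2 difference -1.53, SE 0.11, adjusted p = 3.1e-07). All PPARα-null HS mice lay below all wild-type HS mice in each. *Acadl*, the long-chain acyl-CoA dehydrogenase, read 84.2, 60.8 and 93.9 in PPARα-null HS mice, against 177, 285 and 175 in wild-type HS mice (log2 difference -1.4, SE 0.22, adjusted p = 0.000365). Others were not called: *Cpt1a*, the entry step, read 1189, 1114 and 1512 in PPARα-null HS mice, against 1159, 611 and 1258 in wild-type HS mice (log2 difference 0.39, SE 0.21, adjusted p = 0.285), and *Acadm*, the medium-chain dehydrogenase, differed by 0.10 (log2, SE 0.09); both were chosen after their values were seen. Without mice 16 and 17 the mitochondrial group had 8 calls lower, and with the gap as a covariate 1, *Eci1*.

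**Figure D3:**
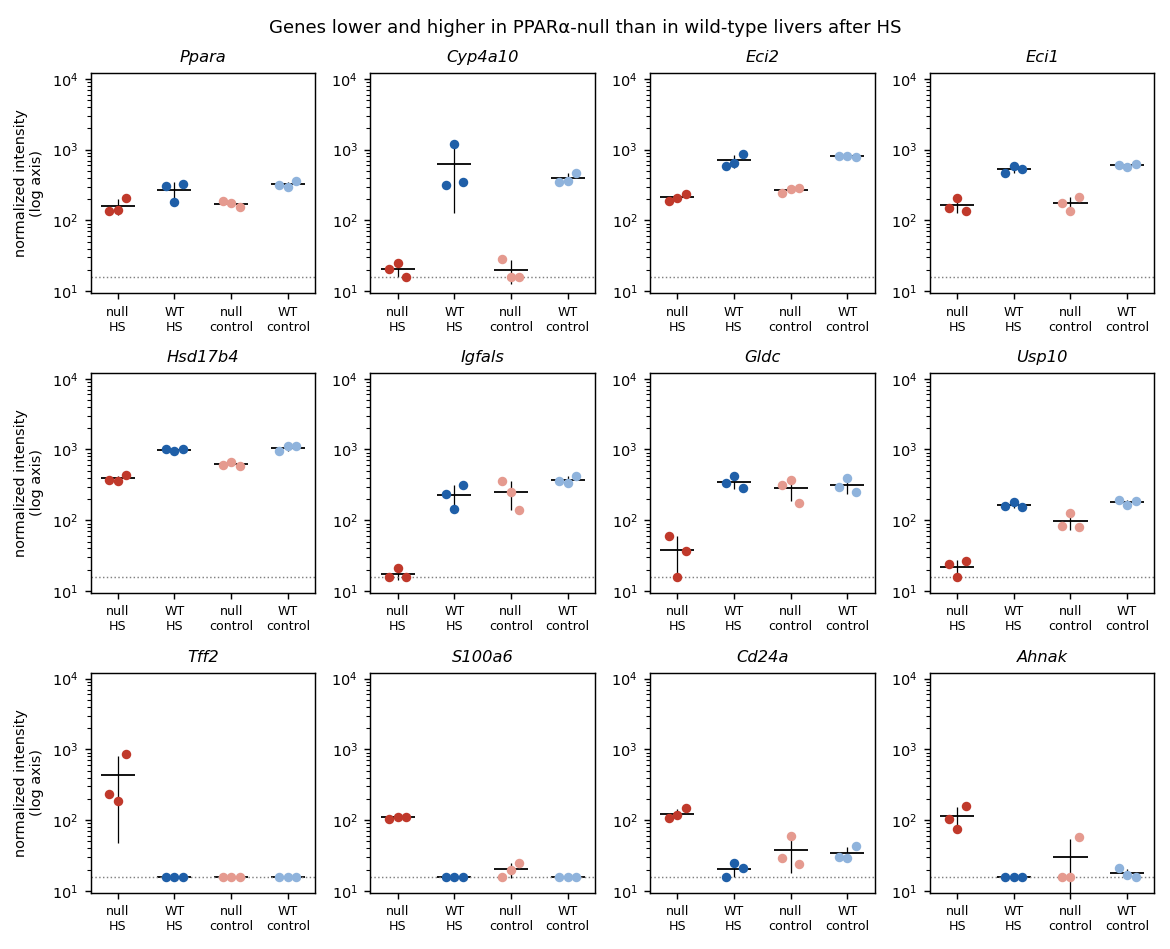
Normalized intensity (log axis) of 12 genes in PPARα-null HS, wild-type HS, PPARα-null control and wild-type control livers, with 1 point per mouse, a line at the group mean, a vertical line for the SD and a dotted line at the floor of 15.7. *Cyp4a10*, *Eci2*, *Eci1* and *Hsd17b4* were lower in the null strain with and without heat, whereas *Igfals*, *Gldc*, *Tff2* and *S100a6* parted after HS.

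Of 16 measured genes of cholesterol synthesis 5 were called lower and none higher (median log2 difference -0.587, against 0.00 for all genes). *Fdps*, which makes farnesyl diphosphate, read 87.8, 131 and 175 in PPARα-null HS mice, against 469, 806 and 699 in wild-type HS mice (log2 difference -2.35, SE 0.48, adjusted p = 0.00262). *Sc5d*, a sterol desaturase late in the pathway, read 61.5, 25.5 and 49.1 in PPARα-null HS mice, against 150.5, 165 and 163 in wild-type HS mice (log2 difference -1.91, SE 0.29, adjusted p = 0.00027). *Lss*, lanosterol synthase, was at the floor in all PPARα-null HS mice and read 37.7, 155 and 47.8 in wild-type HS mice, at least 4.16-fold higher in the wild-type (log2 difference -2.06, SE 0.46, adjusted p = 0.00542). *Nsdhl*, a sterol dehydrogenase, read 37.8, 34.2 and 39.4 in PPARα-null HS mice, against 93.4, 123 and 113 in wild-type HS mice. None of the 16 was called in control mice or had a called interaction. Their median log2 difference in control mice was -0.408, so much of the difference was also read without heat. Their summed level there did not overlap, from 1608 to 1803 in PPARα-null control mice and 2292 to 2833 in wild-type control mice.

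Of 15 genes of fatty acid synthesis and desaturation 4 were called lower. *Elovl6*, an elongase, read 31.7, 30.4 and 18.2 in PPARα-null HS mice, against 84.7, 126 and 69.1 in wild-type HS mice (log2 difference -1.79, SE 0.40, adjusted p = 0.0051). *Srebf1*, the transcription factor that drives the pathway, read 238, 266 and 535 in PPARα-null HS mice, against 496, 1512 and 556 in wild-type HS mice (log2 difference -1.21, SE 0.39, adjusted p = 0.0454). *Gpam*, the first enzyme of glycerolipid synthesis, read 405, 285 and 659 in PPARα-null HS mice, against 619.5, 1549 and 636 in wild-type HS mice (log2 difference -1.0, SE 0.30, adjusted p = 0.0301). In both the groups overlapped, and both calls ended without mouse 5 (adjusted p = 0.243 for *Srebf1* and 0.149 for *Gpam*). *Elovl5*, an elongase of polyunsaturated fatty acids, read 476, 453 and 693 in PPARα-null HS mice, against 1185, 983 and 992 in wild-type HS mice.

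Lipid import, storage and export genes went both ways. Of 25 measured genes of fatty acid uptake, activation and storage 5 were called lower and 3 higher. *Vnn1*, a pantetheinase and PPARα target, read 25.9, 15.7 and 22.9 in PPARα-null HS mice, against 65.5, 108 and 47.2 in wild-type HS mice (log2 difference -1.72, SE 0.36, adjusted p = 0.0032), and it was lower in control mice too (log2 difference -2.71, adjusted p = 0.000806). *Lpl*, lipoprotein lipase, and *Fabp4*, a fatty acid binding protein of fat cells and macrophages, were called higher, *Lpl* at 95.8, 90.8 and 90.1 in PPARα-null HS mice, against 15.7, 78.3 and 15.7 in wild-type HS mice and *Fabp4* at 52.9, 61.8 and 43 in PPARα-null HS mice, against 21.9, 15.7 and 16.5 in wild-type HS mice. Another probe set of *Lpl* lay at or near the floor in both HS groups (log2 difference 0.21) and was not called. *Slc27a2*, a fatty acid transporter, read 1254, 1151 and 1554 in PPARα-null HS mice, against 2068, 2056 and 2410 in wild-type HS mice (log2 difference -0.73, SE 0.13, adjusted p = 0.00111). Of 19 apolipoprotein and lipoprotein assembly genes 4 were called lower. *Apob*, the backbone of VLDL, read 161, 208 and 334 in PPARα-null HS mice, against 1281, 776 and 1761 in wild-type HS mice (log2 difference -2.43, SE 0.44, adjusted p = 0.00106). *Mttp*, which loads it with lipid, read 17.5, 16.6 and 28.6 in PPARα-null HS mice, against 62.4, 86.5 and 59.8 in wild-type HS mice (log2 difference -1.76, SE 0.35, adjusted p = 0.00234). In bile acid metabolism *Cyp7a1*, the rate-limiting enzyme, read 15.7, 15.7 and 16.8 in PPARα-null HS mice, against 47, 90 and 70.7 in wild-type HS mice (log2 difference -2.06, SE 0.53, adjusted p = 0.0134). *Slc10a1*, which takes bile acids up from blood, read 906, 881 and 1549 in PPARα-null HS mice, against 2169, 2258 and 2396 in wild-type HS mice (log2 difference -1.08, SE 0.21, adjusted p = 0.00195). *Abcc3*, which exports conjugates back to blood, was called higher at 1185, 1285 and 1416 in PPARα-null HS mice, against 828, 648 and 895 in wild-type HS mice. None of these 19 and 12 genes was called in control mice, and none had a called interaction.

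Outside these groups, large differences downward were found in genes of mixed function. *Saa4*, a serum amyloid carried on HDL, was at the floor in all PPARα-null HS mice and read 309, 322 and 222 in wild-type HS mice, at least 17.8-fold higher in the wild-type (log2 difference -4.15, SE 0.77, adjusted p = 0.00126). *Igfals*, which holds IGF complexes in blood, read 15.7, 21 and 15.7 in PPARα-null HS mice, against 233, 143 and 315 in wild-type HS mice (log2 difference -3.66, SE 0.32, adjusted p = 1.42e-06). The genotypes overlapped in control mice, at 362, 251 and 141 in PPARα-null control mice, against 355, 333 and 423 in wild-type control mice. The interaction was called (interaction -3.0 on the log2 scale, adjusted p = 0.00247). *Gldc*, the decarboxylase of the glycine cleavage system, read 59.2, 15.7 and 37.3 in PPARα-null HS mice, against 340.1, 416 and 282 in wild-type HS mice (log2 difference -3.39, SE 0.41, adjusted p = 3.88e-05). Its control groups overlapped, at 314, 366 and 174 in PPARα-null control mice, against 291, 395 and 248 in wild-type control mice (interaction -3.22 on the log2 scale, adjusted p = 0.0103). *Usp10*, a ubiquitin hydrolase, read 23.9, 15.7 and 26.2 in PPARα-null HS mice, against 158, 179 and 152 in wild-type HS mice (log2 difference -2.92, SE 0.24, adjusted p = 7.19e-07), with a called interaction too (interaction -2.0 on the log2 scale, adjusted p = 0.00629). The largest differences were picked among genes whose HS groups did not overlap, so the lack of overlap in these genes adds no support.

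The others of the 12 largest differences downward were less certain. *Atp6v0e2*, a subunit of the vacuolar proton pump, *Lypla1*, a lysophospholipase, and *Chrne*, a subunit of the muscle acetylcholine receptor, lay at the floor in all PPARα-null HS mice, and *Ninj1*, which acts in membrane rupture of dying cells, in 2 of them. Their wild-type HS values were 233, 219.9 and 137 for *Atp6v0e2*, 139, 138 and 151 for *Lypla1*, 133, 168 and 117 for *Chrne* and 142, 240.2 and 149.9 for *Ninj1*. Brighter probe sets of *Lypla1* differed by -0.49, 0.25 and 0.19 (log2) and were not called. *Qsox1*, which forms disulfide bonds in secreted proteins, read 39.8, 32.6 and 42.7 in PPARα-null HS mice, against 299.8, 370.1 and 235 in wild-type HS mice (log2 difference -2.96, SE 0.42, adjusted p = 0.000166), and its brighter probe set differed by -0.74 (adjusted p = 0.0531).

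Genes of the endoplasmic reticulum (ER), where secreted proteins fold, were called lower in 10 of 33 and higher in none. In control mice none of the 33 was called, and the interaction was called lower for 5. *Pdia6*, a disulfide isomerase, read 50.9, 24.6 and 54 in PPARα-null HS mice, against 172, 195 and 156 in wild-type HS mice (log2 difference -2.09, SE 0.27, adjusted p = 6.3e-05). *Txndc5*, another, read 29.3, 94.8 and 118 in PPARα-null HS mice, against 247, 436 and 226 in wild-type HS mice (log2 difference -2.07, SE 0.39, adjusted p = 0.00137). *Xbp1*, the transcription factor of the unfolded protein response, read 222, 188 and 311 in PPARα-null HS mice, against 703, 567 and 544 in wild-type HS mice (log2 difference -1.35, SE 0.25, adjusted p = 0.00128). All wild-type HS mice lay above all PPARα-null HS mice in these genes. *Sec61a1*, the protein channel of the ER membrane, read 307, 299.6 and 333 in PPARα-null HS mice, against 656, 816 and 637 in wild-type HS mice (log2 difference -1.16, SE 0.15, adjusted p = 8.37e-05), but another of its probe sets read 497, 596 and 400.1 in PPARα-null HS mice and 379.9, 539 and 376 in wild-type HS mice. The main ER chaperones were chosen after their values were seen. *Hspa5* (BiP) was called lower at 706, 656 and 537 in PPARα-null HS mice, against 1114, 1404 and 739.8 in wild-type HS mice (log2 difference -0.74, SE 0.23, adjusted p = 0.0433), and *Hsp90b1* (GRP94) was not called at 2970, 2989 and 2381 in PPARα-null HS mice, against 1742, 2435 and 1642 in wild-type HS mice (log2 difference 0.53, SE 0.24, adjusted p = 0.163). The group had 4 calls lower without mice 16 and 17 and none with the gap as a covariate.

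Proteasome subunits were called lower in 10 of 40 and higher in 2, with no call in control mice. *Psmb3*, of the β ring, read 304, 292 and 306 in PPARα-null HS mice, against 544, 742 and 670.5 in wild-type HS mice (log2 difference -1.11, SE 0.14, adjusted p = 4.76e-05). *Psma1*, of the α ring, read 94.9, 84.5 and 98.3 in PPARα-null HS mice, against 138, 196 and 192 in wild-type HS mice (log2 difference -0.91, SE 0.14, adjusted p = 0.000325). *Psmb2* read 270.2, 273 and 319 in PPARα-null HS mice, against 454, 559 and 466 in wild-type HS mice (log2 difference -0.78, SE 0.09, adjusted p = 1.83e-05). In these 3 the groups did not overlap. *Psmc4*, an ATPase of the cap, was called higher at 76.5, 76.9 and 17 in PPARα-null HS mice, against 18.7, 15.7 and 20.2 in wild-type HS mice (log2 difference 1.36, SE 0.43, adjusted p = 0.0442), where mouse 18 lay among the wild-type mice. Of 50 tRNA synthetases and translation factors 13 were called lower and 2 higher. *Gspt1*, a release factor, read 83, 79.3 and 97.4 in PPARα-null HS mice, against 236, 354 and 241 in wild-type HS mice (log2 difference -1.66, SE 0.15, adjusted p = 1.42e-06). *Eif3a*, the large subunit of an initiation factor, read 41.1, 52.5 and 81.7 in PPARα-null HS mice, against 145, 152 and 115 in wild-type HS mice (log2 difference -1.28, SE 0.24, adjusted p = 0.00158), and *Farsa*, a phenylalanyl-tRNA synthetase subunit, was at the floor in all PPARα-null HS mice. *Eif4b*, an initiation factor, read 33.1, 17.1 and 153 in PPARα-null HS mice, against 282, 94.1 and 245 in wild-type HS mice with overlapping groups. Of 31 cytosolic ribosomal protein genes measured 5 were called lower and 3 higher, and *Rpl10a* was called lower by its brightest probe set at 381, 371 and 639 in PPARα-null HS mice, against 678, 974 and 794 in wild-type HS mice and higher by an _f_at probe set (log2 difference 0.68, adjusted p = 0.0046).

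Mitochondrial genes of energy metabolism split. In the TCA cycle, with pyruvate dehydrogenase, 8 of 19 were called lower and none higher. *Idh3g*, an isocitrate dehydrogenase subunit, read 75.4, 68.8 and 116 in PPARα-null HS mice, against 198, 222 and 209 in wild-type HS mice (log2 difference -1.31, SE 0.16, adjusted p = 3e-05). *Pdha1*, the E1α subunit of pyruvate dehydrogenase, read 162, 196 and 179 in PPARα-null HS mice, against 374, 369.6 and 349.6 in wild-type HS mice (log2 difference -1.03, SE 0.13, adjusted p = 5.86e-05). *Suclg1* and *Suclg2*, subunits of succinyl-CoA ligase, differed by -0.71 and -0.78 (log2). In oxidative phosphorylation 17 of 68 were called lower and 13 higher, both above the share among all genes, and 8 had a called interaction, all lower. *Atp5o*, of ATP synthase, read 464, 414 and 382 in PPARα-null HS mice, against 902, 916 and 1063 in wild-type HS mice (log2 difference -1.19, SE 0.14, adjusted p = 3e-05). *Cox17*, a copper chaperone of cytochrome oxidase, read 1050, 1038 and 875 in PPARα-null HS mice, against 457, 421 and 508 in wild-type HS mice (log2 difference 1.1, SE 0.17, adjusted p = 0.000273). *Ndufb7*, of complex I, read 1531, 1589 and 1136 in PPARα-null HS mice, against 804, 792 and 718 in wild-type HS mice (log2 difference 0.87, SE 0.13, adjusted p = 0.000284). *Cox6a2*, a muscle subunit, read 71.1, 62.8 and 15.7 in PPARα-null HS mice and was at the floor in all wild-type HS mice. Without mice 16 and 17 the calls were 11 lower and 1 higher, and by the common median of the arrays 16 lower and 2 higher.

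In amino acid breakdown 8 of 29 genes of the urea cycle and catabolism were called lower and 2 higher. *Dmgdh*, dimethylglycine dehydrogenase, read 452, 397 and 532 in PPARα-null HS mice, against 906, 1117 and 965 in wild-type HS mice (log2 difference -1.12, SE 0.16, adjusted p = 0.000192). *Gcsh*, the carrier protein of the glycine cleavage system, read 233, 260.1 and 254 in PPARα-null HS mice, against 449, 418 and 478 in wild-type HS mice (log2 difference -0.85, SE 0.08, adjusted p = 2.98e-06). *Bhmt*, betaine-homocysteine methyltransferase, read 2610, 2410 and 2547 in PPARα-null HS mice, against 3545, 6185 and 4270 in wild-type HS mice (log2 difference -0.85, SE 0.20, adjusted p = 0.0086). In the degradation of branched-chain amino acids 2 of 14 were lower: *Hsd17b10* read 168, 183 and 221 in PPARα-null HS mice, against 447, 379 and 410.1 in wild-type HS mice (log2 difference -1.12, SE 0.13, adjusted p = 2.2e-05). *Hibadh* read 567, 532 and 620.5 in PPARα-null HS mice, against 885, 818 and 819.6 in wild-type HS mice (log2 difference -0.56, SE 0.07, adjusted p = 3.29e-05). *Mmut*, methylmalonyl-CoA mutase, was called higher at 319.8, 371 and 250.2 in PPARα-null HS mice, against 179, 252 and 212 in wild-type HS mice, with overlapping groups.

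Hormone, transcription and drug metabolism genes were called lower more often than higher, as were _at probe sets with a mean above 63.0. Those were called lower in 17.9% and higher in 10.2%. The shares of the growth hormone and IGF genes (20.0%) and the P450 genes (18.2%), all lower, lay near that 17.9%. Of 20 genes of the growth hormone and IGF axis 4 were lower, with *Igfals* (above), *Stat5a*, a transducer of growth hormone, at 15.7, 63.7 and 88.8 in PPARα-null HS mice, against 194, 143 and 149 in wild-type HS mice, *Keg1*, an acyltransferase-like gene, at 91.8, 92.2 and 156 in PPARα-null HS mice, against 491, 113 and 779.8 in wild-type HS mice with overlapping groups, and *Igfbp2*, an IGF binding protein, at 629, 719.7 and 968 in PPARα-null HS mice, against 1584, 1949 and 1793 in wild-type HS mice (log2 difference -1.22, SE 0.24, adjusted p = 0.00213). Nuclear receptors and liver transcription factors were called lower in 4 of 31 and higher in 1, against 8.88% and 7.89% of all genes. Their median log2 difference was 0.00. *Hnf4a*, a master regulator of hepatocyte genes, read 40.7, 29.7 and 29.9 in PPARα-null HS mice, against 159, 212 and 145 in wild-type HS mice (log2 difference -2.36, SE 0.40, adjusted p = 0.000599). *Cebpa*, another, read 1843, 1811 and 1871 in PPARα-null HS mice, against 2856, 2325 and 2587 in wild-type HS mice (log2 difference -0.49, SE 0.14, adjusted p = 0.0233), and *Thra*, a thyroid hormone receptor, was higher at 145, 163 and 136 in PPARα-null HS mice, against 85.8, 92 and 103 in wild-type HS mice (log2 difference 0.66, SE 0.17, adjusted p = 0.0129). Of 22 P450 genes 4 were lower. The probe set of *Cyp2c38*, shared within the Cyp2c family, read 424, 375 and 384 in PPARα-null HS mice, against 1249, 1700 and 1377 in wild-type HS mice (log2 difference -1.86, SE 0.16, adjusted p = 8.08e-07), that of *Cyp3a16* 166, 149 and 122 in PPARα-null HS mice, against 630.2, 667 and 640.5 in wild-type HS mice (log2 difference -2.16, SE 0.39, adjusted p = 0.001), that of *Cyp2d10* 1142, 1126 and 2587 in PPARα-null HS mice, against 3727, 3076 and 4366 in wild-type HS mice and that of *Cyp4f13* 106, 74.5 and 186 in PPARα-null HS mice, against 248, 141 and 290.3 in wild-type HS mice. These enzymes have close relatives, so the gene behind each value is uncertain. Another probe set of *Cyp2d10* differed by 0.26 (log2) and was not called. An _f_at probe set of *Cyp4f13* went the other way without a call (log2 difference 1.33). It read 283, 214 and 265 in PPARα-null HS mice, against 134, 57.1 and 133 in wild-type HS mice.

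Plasma proteins and detoxification genes went in both directions. Of 33 complement and coagulation genes 6 were called lower and 5 higher. *Masp2*, a protease of the lectin pathway, read 15.7, 28.4 and 29.5 in PPARα-null HS mice, against 118, 131 and 86.4 in wild-type HS mice (log2 difference -2.22, SE 0.23, adjusted p = 9.45e-06), with a called interaction (interaction -1.78 on the log2 scale, adjusted p = 0.011). *F10*, coagulation factor X, read 773, 984 and 871 in PPARα-null HS mice, against 1317, 1642 and 1195 in wild-type HS mice (log2 difference -0.65, SE 0.13, adjusted p = 0.00214), while another of its probe sets differed by 0.05 (log2). *F5* read 702, 640.5 and 906 in PPARα-null HS mice, against 1117, 1095 and 1174 in wild-type HS mice (log2 difference -0.61, SE 0.10, adjusted p = 0.000705). Of 34 acute phase genes 3 were lower and none higher: besides *Saa4*, *Pzp*, a protease inhibitor, read 3808, 3649 and 4201 in PPARα-null HS mice, against 5041, 5396 and 5099 in wild-type HS mice. *Serpina1b*, an antitrypsin of a gene family with near-identical copies, read 7674, 7674 and 7287 in PPARα-null HS mice, against 8016, 9816 and 8198 in wild-type HS mice. Of 17 glutathione S-transferases 3 were higher and 2 lower, with *Gstm5* at 1180, 1339 and 1086 in PPARα-null HS mice, against 602, 547 and 806 in wild-type HS mice, *Gstt1* at 539, 498 and 509 in PPARα-null HS mice, against 954, 954 and 834 in wild-type HS mice, *Gstt2* at 247, 272 and 202 in PPARα-null HS mice, against 402, 368 and 369 in wild-type HS mice and *Gstk1* at 1377, 1356 and 979.7 in PPARα-null HS mice, against 976, 781 and 858 in wild-type HS mice. Among NRF2 targets and metallothioneins *Gsr*, glutathione reductase, was lower at 118, 118 and 119 in PPARα-null HS mice, against 223, 208 and 185 in wild-type HS mice (log2 difference -0.79, SE 0.08, adjusted p = 4.22e-06), with overlapping control groups at 201, 189.7 and 180.4 in PPARα-null control mice, against 177, 211 and 185 in wild-type control mice (interaction -0.79 on the log2 scale, adjusted p = 0.00107), and *Srxn1*, sulfiredoxin, was higher at 425, 448 and 446 in PPARα-null HS mice, against 238, 158 and 319 in wild-type HS mice (log2 difference 0.94, SE 0.21, adjusted p = 0.00567).

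The largest differences upward were read largely from genes that lay at or near the floor in wild-type HS livers. *Tff2*, a trefoil peptide of mucous epithelia, read 232, 186 and 869.5 in PPARα-null HS mice and was at the floor in all wild-type HS mice, at least 21.2-fold (log2 difference 4.41, SE 0.34, adjusted p = 4.13e-07). It was at the floor in all 6 control mice as well, and the interaction was called (interaction 4.41 on the log2 scale, adjusted p = 0.000131). *Igfbp1*, a fasting-induced IGF binding protein of hepatocytes, was the brightest, at 1606, 1642 and 587 in PPARα-null HS mice, against 241, 35 and 100.2 in wild-type HS mice (log2 difference 3.61, SE 0.64, adjusted p = 0.000928). Control mice already read 656, 983 and 1112 in PPARα-null control mice, against 427, 239 and 391.7 in wild-type control mice (log2 difference 1.39, adjusted p = 0.475). *Igkv6-23*, an immunoglobulin light chain segment read by an _f_at probe set that many antibodies could share, read 239, 237 and 1216 in PPARα-null HS mice and was at the floor in wild-type HS mice (log2 difference 4.7, SE 1.08, adjusted p = 0.00638). *Cd4*, a co-receptor of T helper cells, read 211, 267 and 219 in PPARα-null HS mice, against 15.7, 31.5 and 15.7 in wild-type HS mice (log2 difference 3.54, SE 0.70, adjusted p = 0.00217). *H2-Aa*, of MHC class II, read 172, 127 and 232 in PPARα-null HS mice, against 35.5, 15.7 and 15.7 in wild-type HS mice (log2 difference 3.05, SE 0.74, adjusted p = 0.00951).

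*Ahnak*, a large scaffold protein of the membrane cytoskeleton, read 105, 75.1 and 158 in PPARα-null HS mice and was at the floor in wild-type HS mice, at least 6.84-fold (log2 difference 2.77, SE 0.40, adjusted p = 0.000167). *Mmp12*, the elastase of macrophages, read 129, 135 and 128 in PPARα-null HS mice, against 24.3, 17.9 and 15.7 in wild-type HS mice (log2 difference 2.78, SE 0.55, adjusted p = 0.00215). *Npy6r*, a neuropeptide Y receptor, read 185, 216 and 233 in PPARα-null HS mice, against 15.7, 50.3 and 15.7 in wild-type HS mice. *Gpr162*, an orphan receptor, read 102, 174 and 148 in PPARα-null HS mice, against 15.9, 22.2 and 20.5 in wild-type HS mice with PPARα-null control mice at 104, 29.9 and 162. *Ctnna1*, α-catenin, read 302, 312 and 126 in PPARα-null HS mice, against 15.7, 60.2 and 15.7 in wild-type HS mice. *Ercc2*, a repair helicase, read 179, 159.5 and 43.4 in PPARα-null HS mice with wild-type HS mice at the floor, but other probe sets of these 2 genes differed by -0.17 and 0.51 (log2) and were not called.

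S100 proteins, annexins and trefoil peptides were called higher in 9 of 20 genes and lower in none, against 7.89% of all genes. In control mice none was called, and the interaction was called higher for 6, against 0.788% of all genes higher and 1.09% lower. *S100a6*, a calcium-binding protein, read 105, 112 and 112 in PPARα-null HS mice and was at the floor in every wild-type HS mouse, at least 6.97-fold (log2 difference 2.8, SE 0.10, adjusted p = 9.51e-12). In control mice it read 15.7, 19.6 and 25.1 in PPARα-null control mice and was at the floor in all wild-type control mice (interaction 2.47 on the log2 scale, adjusted p = 1.72e-08). *S100a3* read 64.8, 81.7 and 42.6 in PPARα-null HS mice and was at the floor in wild-type HS mice (log2 difference 1.95, SE 0.42, adjusted p = 0.00414). *S100a8*, a major protein of neutrophils, read 61.4, 64 and 109 in PPARα-null HS mice, against 25.7, 30.3 and 15.7 in wild-type HS mice (log2 difference 1.71, SE 0.29, adjusted p = 0.000639), and its partner *S100a9* read 43.6, 33.5 and 38.3 in PPARα-null HS mice with all wild-type HS and control mice at the floor (log2 difference 1.28, SE 0.11, adjusted p = 1.13e-06). The group had 3 calls higher with the gap as a covariate. In *S100a6*, *S100a3* and *S100a9* the lack of spread at the floor enters the p-values.

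Matrix and cytoskeleton genes were also called higher. Of 47 collagen and matrix genes 11 were higher and none lower. *Col1a1*, of type I collagen, read 131, 150.2 and 102 in PPARα-null HS mice, against 28.9, 40.9 and 51.6 in wild-type HS mice (log2 difference 1.68, SE 0.46, adjusted p = 0.0189). *Col3a1* read 49.5, 57 and 89.6 in PPARα-null HS mice, against 21, 22.5 and 16.9 in wild-type HS mice (log2 difference 1.66, SE 0.38, adjusted p = 0.00592). *Col4a1*, of basement membranes, read 293, 252 and 281 in PPARα-null HS mice, against 123, 67.5 and 119.9 in wild-type HS mice (log2 difference 1.46, SE 0.33, adjusted p = 0.00564). PPARα-null HS mice lay above wild-type HS mice in each of these genes. The control groups of *Col1a1* overlapped at 35.5, 31.8 and 44.8 in PPARα-null control mice, against 25.8, 38.9 and 44.1 in wild-type control mice. The interaction was called for none of the 47 matrix genes and for none of the actin genes below. Of 44 actin cytoskeleton genes linked to the factor SRF 8 were higher and 2 lower. *Tagln*, a smooth muscle actin-binding protein, read 140.5, 144 and 166 in PPARα-null HS mice, against 34.4, 30.6 and 36.2 in wild-type HS mice (log2 difference 2.15, SE 0.39, adjusted p = 0.00111). *Des*, desmin, read 70.6, 70.7 and 59.8 in PPARα-null HS mice, against 34.3, 31.3 and 25.8 in wild-type HS mice (log2 difference 1.14, SE 0.21, adjusted p = 0.00116). *Tmsb4x*, thymosin β4, read 316, 329 and 386 in PPARα-null HS mice, against 165, 206 and 165 in wild-type HS mice (log2 difference 0.95, SE 0.21, adjusted p = 0.00571). *Vcl*, vinculin, was lower at 76.3, 51.4 and 134 in PPARα-null HS mice, against 148, 156 and 161 in wild-type HS mice. Without mice 16 and 17 the matrix genes had 7 calls higher and the actin genes 9; without scaling of the arrays the matrix genes had none higher and 3 lower.

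Some markers of cells other than hepatocytes were higher too. Of 13 stellate cell and fibroblast genes 5 were called higher, of 10 B and plasma cell genes 4, of 16 endothelial genes 4, of 18 macrophage genes 3, of 14 neutrophil genes 2, of 9 bile duct genes 2, of 7 adipose genes 2 and of 13 T and NK cell genes 1, with none lower. The T and NK cell share, 7.69%, lay near the 7.89% of all genes called higher. Exocrine pancreas genes were called higher in 2 of 13 and erythroid genes in 1 of 7, with none lower. The summed level of a list ran from 2135 to 2821 in PPARα-null HS mice and 1516 to 1677 in wild-type HS mice for stellate cells, and from 2152 to 2754 in PPARα-null HS mice and 1039 to 1272 in wild-type HS mice for B cells. It did not overlap either for macrophages (1851 to 2161 in PPARα-null HS mice, 1304 to 1704 in wild-type HS mice), T and NK cells, endothelium, bile duct or adipose genes. For neutrophils it overlapped, at 1078 to 1420 in PPARα-null HS mice and 684.6 to 1887 in wild-type HS mice. The sums of the exocrine pancreas and erythroid genes overlapped too. Several gene groups outside these markers also had sums that did not overlap, so the separation is not particular to cell markers. For clock genes, with 1 call higher and 1 lower, they ran from 3037 to 3338 in PPARα-null HS mice and 2104 to 2909 in wild-type HS mice. The hepatocyte sum was lower in every PPARα-null HS mouse than in every wild-type HS mouse. Without scaling the calls higher were 0 for stellate, B cell, macrophage and adipose genes, and endothelium had 2 higher and 2 lower. With the gap as a covariate 2 bile duct genes, *Tff2* and *Cd24a*, were called and none of the other lists had a call. These 2 genes also made up most of the bile duct sum in PPARα-null HS mice. Without mice 16 and 17 there was none for macrophages, T and NK cells and adipose tissue. *Cd74*, the invariant chain of MHC class II, read 602, 484 and 1041 in PPARα-null HS mice, against 251, 162 and 299.8 in wild-type HS mice (log2 difference 1.54, SE 0.42, adjusted p = 0.0197). *Ighm*, of IgM, read 345, 366 and 558 in PPARα-null HS mice, against 107, 181 and 185 in wild-type HS mice (log2 difference 1.43, SE 0.32, adjusted p = 0.0056). *Jchain*, which joins IgM, read 75.8, 88 and 63.7 in PPARα-null HS mice, against 27.4, 31.4 and 41.2 in wild-type HS mice (log2 difference 1.19, SE 0.20, adjusted p = 0.000525). *Cd14*, a co-receptor for lipopolysaccharide, read 161, 171 and 138 in PPARα-null HS mice, against 70.9, 50.5 and 59.4 in wild-type HS mice (log2 difference 1.39, SE 0.27, adjusted p = 0.00169). *Vwf*, von Willebrand factor of endothelium, read 32.5, 47.3 and 51.9 in PPARα-null HS mice with wild-type HS mice at the floor.

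Many defining markers of these cells gave no signal or no difference. *Adgre1*, *Marco* and *Aif1* of macrophages, *Cd3d*, *Cd3e*, *Cd3g* and *Cd8a* of T cells, *Cd22* of B cells, *Itgam* and *Ngp* of neutrophils and *Epcam* and *Krt7* of bile ducts lay at the floor in all 6 livers, and *Pecam1* of endothelium and *Cd79a* of B cells differed by -0.01 and -0.13 (log2). *Cd24a*, an epithelial and leukocyte surface protein, read 106, 117 and 146 in PPARα-null HS mice, against 15.7, 24.7 and 21 in wild-type HS mice (log2 difference 2.6, SE 0.30, adjusted p = 2.35e-05). Of 20 skeletal muscle genes 4 were higher and 1 lower, and none was called without mice 16 and 17. Their summed level overlapped, from 2073 to 2696 in PPARα-null HS mice and 2394 to 3699 in wild-type HS mice. Among those called higher was *Myh1*, a fast myosin, at 255, 165 and 15.7 in PPARα-null HS mice and the floor in wild-type HS mice. Mouse 18 lay at the floor too. The part of other cell types in the upward differences was not tested.

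Of 32 immediate-early and p53 genes 3 were higher and 1 lower, against 7.89% and 8.88% of all genes. *Egr1*, an early growth factor target, read 81.7, 75.8 and 64.4 in PPARα-null HS mice, against 15.7, 43.8 and 15.7 in wild-type HS mice (log2 difference 1.73, SE 0.40, adjusted p = 0.00619). *Atf3*, a stress transcription factor, read 80.9, 93 and 58.7 in PPARα-null HS mice, against 23.6, 43.1 and 30.9 in wild-type HS mice (log2 difference 1.27, SE 0.36, adjusted p = 0.024). *Jund*, of AP-1, read 2190, 2470 and 1496 in PPARα-null HS mice, against 1148, 1391 and 923 in wild-type HS mice (log2 difference 0.82, SE 0.18, adjusted p = 0.00391), and *Gadd45a* was at the floor in PPARα-null HS mice and read 36.1, 17.7 and 31.1 in wild-type HS mice. Among 20 clock genes *Rora* was called lower and *Csnk1d* higher, but another probe set of *Csnk1d* differed by -0.20 (log2) and was not called. Among 38 cell cycle genes *Cks2* was lower and *Tk1* higher. *Tk1*, thymidine kinase, read 114, 155 and 199 in PPARα-null HS mice, against 27.1, 52.8 and 34.9 in wild-type HS mice and was higher in control mice as well (log2 difference 2.52, adjusted p = 0.0116), but another probe set of it was called lower (log2 difference -2.59, adjusted p = 0.0227). *Tubb3* and *Tubg1*, of 12 tubulins, were lower, *Tubb3* by a probe set shared among β-tubulins at 58.2, 30 and 32.3 in PPARα-null HS mice, against 160.3, 453 and 143 in wild-type HS mice. In sugar metabolism *Pgam1*, phosphoglycerate mutase, was lower at 256, 200.1 and 191 in PPARα-null HS mice, against 394, 504 and 386 in wild-type HS mice (log2 difference -0.99, SE 0.20, adjusted p = 0.00218) and *Gcgr*, the glucagon receptor, higher at 776, 818 and 1002 in PPARα-null HS mice, against 579, 552 and 573 in wild-type HS mice (log2 difference 0.60, SE 0.11, adjusted p = 0.000886).

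Cytosolic chaperones, the classical heat shock genes, were called lower in 4 of 39 and higher in 1, against 8.88% and 7.89% of all genes, with a median log2 difference of 0.00. The 4 called lower were co-chaperones, with 1 called lower without wild-type HS mouse 4 and none without mice 16 and 17. *Stip1*, which links Hsp70 to Hsp90, read 235, 211 and 187 in PPARα-null HS mice, against 456, 357 and 472 in wild-type HS mice (log2 difference -1.02, SE 0.23, adjusted p = 0.00587), and in control mice it read 308, 166 and 153 in PPARα-null control mice, against 199.6, 218 and 181 in wild-type control mice. *St13*, an Hsp70-interacting protein, read 48.1, 38.3 and 41.8 in PPARα-null HS mice, against 146, 102 and 97.3 in wild-type HS mice (log2 difference -1.42, SE 0.35, adjusted p = 0.0116), and its dimmer probe set was at the floor in all PPARα-null HS mice. *Cacybp*, a partner of Hsp90-linked ubiquitination, read 139.5, 108 and 101 in PPARα-null HS mice, against 193, 151 and 212 in wild-type HS mice (log2 difference -0.68, SE 0.20, adjusted p = 0.0282). *Dnajc5*, an Hsp40 of vesicles, read 16.8, 25.1 and 20.2 in PPARα-null HS mice, against 40.3, 44.4 and 46.7 in wild-type HS mice (log2 difference -1.1, SE 0.32, adjusted p = 0.0296). In each the HS groups did not overlap.

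Chaperones known to be induced by heat, and their constitutive relative, given here after their values were seen, overlapped between the genotypes. *Hsp90aa1*, the inducible Hsp90, read 2598, 2291 and 1707 in PPARα-null HS mice, against 2345, 1496 and 3039 in wild-type HS mice (log2 difference -0.02, SE 0.36, adjusted p = 1). *Hsph1*, Hsp110, read 1572, 1563 and 342 in PPARα-null HS mice, against 1620, 244 and 1362 in wild-type HS mice (log2 difference 0.21, SE 0.64, adjusted p = 1), with PPARα-null mouse 18 and wild-type mouse 5 low and the other 4 mice high. *Hspa1b*, an inducible Hsp70, read 122, 125 and 32.1 in PPARα-null HS mice, against 79.3, 47.9 and 43.4 in wild-type HS mice (log2 difference 0.52, SE 0.83, adjusted p = 0.996). *Hspa8*, the constitutive Hsc70, read 881, 794 and 622 in PPARα-null HS mice, against 665, 570.4 and 406 in wild-type HS mice (log2 difference 0.50, SE 0.20, adjusted p = 0.106). With an SE of 0.36 to 0.83 for *Hsp90aa1*, *Hsph1* and *Hspa1b*, sizeable differences between the genotypes would not have been detectable. In mitochondria 3 of 13 chaperones and proteases were lower and 2 higher: *Grpel1*, the nucleotide exchange factor of mitochondrial Hsp70, read 101, 78.5 and 121 in PPARα-null HS mice, against 239.6, 268 and 209 in wild-type HS mice (log2 difference -1.27, SE 0.20, adjusted p = 0.000352). *Lonp1*, a matrix protease, read 298, 326 and 254 in PPARα-null HS mice, against 169, 116 and 144 in wild-type HS mice (log2 difference 1.04, SE 0.28, adjusted p = 0.0157). Of 14 subunits of the TCP-1 chaperonin and prefoldin, *Pfdn2* was higher and *Pfdn6* lower.

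**Figure D4:**
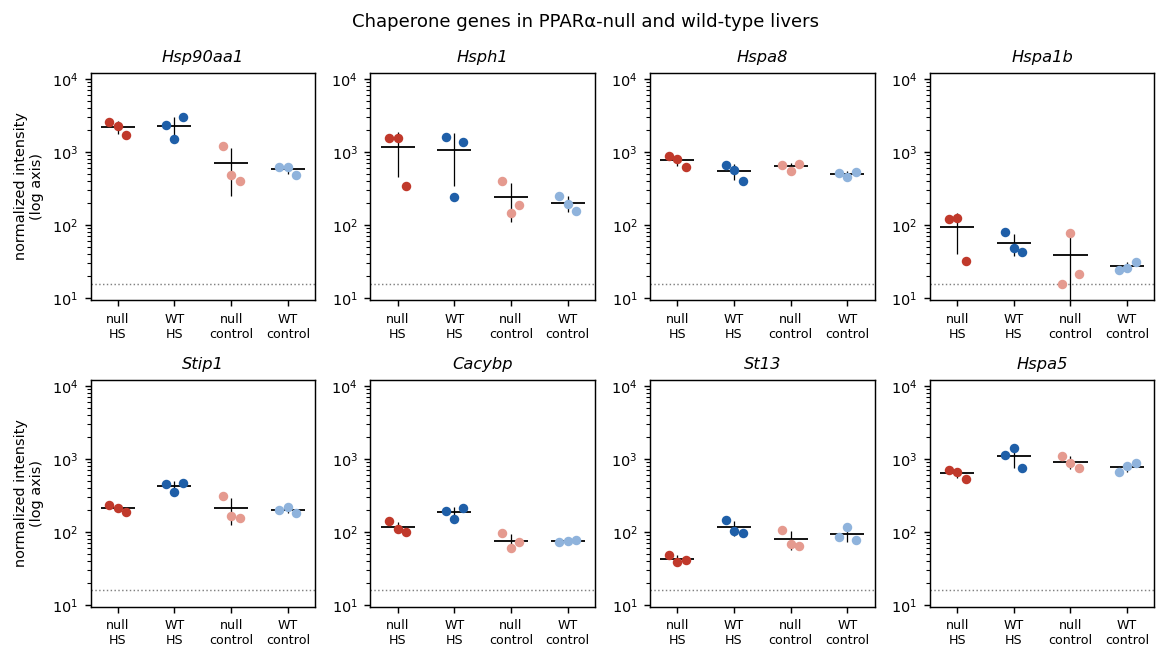
Normalized intensity (log axis) of 8 chaperone genes in PPARα-null HS, wild-type HS, PPARα-null control and wild-type control livers, with 1 point per mouse, a line at the group mean, a vertical line for the SD and a dotted line at the floor of 15.7. *Hsp90aa1* and *Hsph1* overlapped between the genotypes after HS, whereas *Stip1*, *Cacybp* and *St13* were lower in all PPARα-null HS mice.

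Promoters were searched for the pair of facing heat shock units GAANNTTC, which reads the same on both strands, and for the nuclear receptor unit AGGTCA on both strands, in RefSeq promoters of GRCm38.p6 from 250 bases before to 50 after each start. GAANNTTC stood in 7.86% of 32851 promoters, and in 9.04% of 27025 genes in at least 1 promoter. Of the cytosolic chaperones it stood in 11 of 31 with a promoter (35.5%), among them *Hsph1*. Of the 4 co-chaperones called lower, *Stip1* and *Cacybp* had a promoter in the table and no match. Of the fatty acid oxidation genes called lower it stood in 1 of 15 (*Ech1*), and of the S100 group called higher in 1 of 8 (*S100a6*). AGGTCA stood in 16.3% of all promoters and, by gene, in 18.1% of all genes, 3 of 31 chaperones, 1 of 8 of the S100 group and 0 of the 15 fatty acid oxidation genes. A match is only the presence of these letters. The 3 promoters below, chosen after the values were seen, show the motif in capitals in a chaperone that overlapped between the genotypes, a gene higher and a gene lower in PPARα-null HS livers, at chr5:149636287-149636586 on the minus strand, chr3:90612644-90612943 and chr7:28825088-28825387 on the plus strand.
Hsph1: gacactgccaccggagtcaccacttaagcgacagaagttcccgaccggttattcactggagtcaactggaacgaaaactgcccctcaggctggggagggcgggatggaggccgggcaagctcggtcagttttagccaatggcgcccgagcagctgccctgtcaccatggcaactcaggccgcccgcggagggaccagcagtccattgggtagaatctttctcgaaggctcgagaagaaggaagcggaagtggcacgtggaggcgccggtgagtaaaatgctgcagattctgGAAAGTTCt
S100a6: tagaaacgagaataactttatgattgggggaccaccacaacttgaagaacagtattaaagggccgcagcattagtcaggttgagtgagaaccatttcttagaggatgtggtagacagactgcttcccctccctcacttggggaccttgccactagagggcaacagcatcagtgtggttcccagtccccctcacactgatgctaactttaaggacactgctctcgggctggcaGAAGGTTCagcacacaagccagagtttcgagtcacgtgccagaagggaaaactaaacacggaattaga
Ech1: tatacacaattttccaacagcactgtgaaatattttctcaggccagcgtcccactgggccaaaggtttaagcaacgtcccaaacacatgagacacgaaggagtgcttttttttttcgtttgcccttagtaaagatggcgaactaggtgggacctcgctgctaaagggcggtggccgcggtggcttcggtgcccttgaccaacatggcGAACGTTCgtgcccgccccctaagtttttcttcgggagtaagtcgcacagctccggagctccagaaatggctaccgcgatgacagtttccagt

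The genotype difference in control mice was much smaller in number. It was called for 105 probe sets (0.845%), or 25 genes higher (0.303%) and 51 lower (0.618%), and for 1249 at an unadjusted p under 0.05. Of the 105, 84 were called after HS with the same sign (80.0% of the control calls and 4.57% of the HS calls). The 2 comparisons share no mice. Of the 884 probe sets called higher after HS, 714 (80.8%) differed in the same direction in control mice, with a median log2 difference of 0.21 there and 0.79 after HS. Of the 955 called lower 756 (79.2%) did, with a median of -0.22 in control mice and -0.92 after HS. The gap between _f_at and _at probe sets also separated the genotypes in control mice, and its part in these shared directions was not tested. The interaction was called for 201 probe sets (1.62%), 84 higher and 117 lower, and 194 of them were called after HS and 8 in control mice. It reached 1574 at an unadjusted p under 0.05. Without mouse 18 the interaction count was 536, and without null control mouse 14 it was 104.

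**Figure D5:**
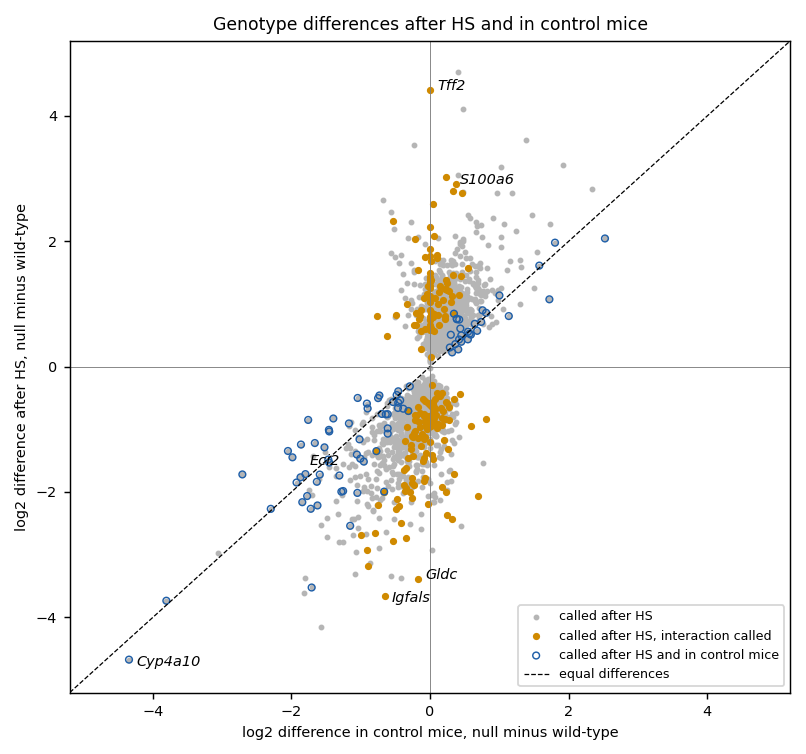
Log2 difference, PPARα-null minus wild-type, after HS (vertical axis) against that in control mice (horizontal axis) for the probe sets called after HS, with those also called in control mice and those with a called interaction marked and a dashed line of equal differences. *Cyp4a10* and *Eci2* lie near the dashed line, and *Tff2*, *S100a6*, *Igfals* and *Gldc* lie nearer to zero on the horizontal than on the vertical axis.

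Few probe sets kept their call under each of 5 alternatives. With a common median, without scaling, with only the 6 arrays fitted and without mice 16 and 17, 212 probe sets kept their call and sign, 58 higher and 154 lower. With the gap as a covariate as well, 19 did, 14 higher and 5 lower. The 5 lower were *Eci2*, *Eci1* and *Hsd17b4* of fatty acid oxidation, *Igfals*, and *Pycrl*, an enzyme of proline synthesis, which was at the floor in PPARα-null HS mice and read 66, 65.4 and 57.1 in wild-type HS mice. The 14 higher included *Tff2*, *S100a6* and *Cd24a*. *Ccr2*, the monocyte chemokine receptor, read 41.4, 43 and 49.7 in PPARα-null HS mice with wild-type HS mice at the floor (log2 difference 1.5, SE 0.04, adjusted p = 2.28e-13). *Chil3*, a chitinase-like protein of myeloid cells, read 68.6, 80.1 and 154 in PPARα-null HS mice, against 16.4, 19.2 and 19.3 in wild-type HS mice (log2 difference 2.38, SE 0.29, adjusted p = 3.46e-05). *Pglyrp1*, a peptidoglycan-binding protein of neutrophils, read 38.4, 38 and 44.4 in PPARα-null HS mice with wild-type HS mice at the floor. The others included *Msc*, *Usp48*, *Crip1*, *Dpep1*, *Ltbp2*, *Rgs2* and *Sertad1*. In 11 of the 14 all wild-type HS mice lay at the floor, and at the higher floor of 33.9 *Dpep1*, *Ltbp2*, *Rgs2* and *Sertad1* lost their call. This set was chosen by its results and carries no test of its own.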

How the data were processed

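Liver RNA of 24 mice, 1 per array, was hybridised to Affymetrix U74Av2 arrays. Images were read in GeneChip Operating Software and the cel files processed in Rosetta Resolver by the authors, who deposited linear intensity values per probe set. How probes were summarised and arrays scaled was not given in the sources used here. Of all deposited values 24.1% were at or below 0. Intensities of all 24 arrays were quantile normalized (limma 3.58.1 in R 4.3.3), set to a floor of 15.7, the size of the 10th percentile, and log2 transformed. 42.9% of values lay at the floor, and the number of arrays limits the precision. Group means of all 8 groups were fitted with lmFit and eBayes, and p-values were Benjamini-Hochberg adjusted over 12422 probe sets. Genes came from GEO's platform annotation: 10833 probe sets had 1 symbol, 396 several and 1193 none. A gene was read from its brightest probe set. Named were *Ppara*, the 12 largest called differences in each direction with groups not overlapping, and up to 4 called members of each gene list by size. The members and lists were chosen with earlier results of these data known. No source says that mice of a group were raised apart. The p-values rest on a spread pooled over all 24 arrays in 8 groups, not on that of the 6 HS mice alone. For probe sets at the floor in several groups this pooled spread can be too small. The fit was tested on simulated data. Alternatives changed the scaling, floor, filter, test, arrays and covariates, and each mouse was left out in turn.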

Additional observations from a re-analysis of the deposited data

Results flagged for a closer look

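The interaction, the genotype difference after HS minus that in control mice, was called for 30 of the named probe sets (limma, adjusted p under 0.05). It is given here in log2 units, with 3 mice in each of the 4 groups. Groups of 3 were not searched for outlying mice.

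The difference was more positive after HS for 7 genes: 4.41 for *Tff2*, 2.56 for *Cd24a*, 2.47 for *S100a6*, 2.31 for *Ahnak*, 1.28 for *S100a9*, 1.02 for *Pkm* and 0.68 for *Gcgr*. In *Tff2*, *Ahnak*, *S100a6* and *S100a9* all wild-type HS mice lay at the floor.

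It was more negative after HS for 23 genes. Among the largest differences after HS it was -3.22 for *Gldc*, -3.00 for *Igfals*, -2.29 for *Lypla1* and -2.0 for *Usp10*. In protein folding and turnover it was -1.84 for *Pdia6*, -1.07 for *Sec61a1*, -0.84 for *Psmb3* and -0.56 for *Psmb2*. In mitochondria and amino acid breakdown it was -1.05 for *Dmgdh*, -1.04 for *Idh3g*, -0.88 for *Hsd17b10*, -0.83 for *Atp5o*, -0.81 for *Pdha1*, -0.63 for *Gcsh*, -0.48 for *Hibadh* and -0.39 for *Suclg1*. In plasma proteins it was -1.78 for *Masp2* and -0.82 for *F10*. The others were -1.60 for *Cyp2c38*, -1.40 for *Tubg1*, -1.27 for *Gspt1*, -0.79 for *Gsr* and -0.57 for *Hsd17b4*.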

How the results depend on the processing

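After HS the 1839 called probe sets became 1192 with the array median as covariate, 1028 at an adjusted p under 0.01, 894 by the methods' test, 711 with only the 6 arrays fitted, 598 without mice 16 and 17 and 28 with the class gap as covariate, and 1205 to 1913 with 1 mouse left out. The share higher was 48.1%, against 37.8% with a common median, 9.05% without scaling and 78.6% with the class gap. Without scaling the median log2 difference of probe sets above the floor was -0.411. In control mice the 105 became 65 with a common median, 17 without scaling, 57 on the asinh scale, 183 with array weights, 39 at an adjusted p under 0.01, 14 with only the arrays compared, 39 with these and a filter, 23 with the class gap, and 51 to 87 with 1 mouse left out. The 201 interactions became 27 without scaling, 69 on the asinh scale, 507 with array weights, 53 at an adjusted p under 0.01, 73 with only the arrays compared, 75 with these and a filter, 26 with the class gap, and 104 to 536 with 1 mouse left out. The cause was not tested. The class gap, mice 16 and 17, and arrays with a filter were chosen after seeing the data. Without mice 16 and 17 the PPARα-null HS group is mouse 18 alone.

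Named genes that turned sign with the class gap as covariate were *Srebf1* (0.29), *Pfdn6* (0.27), *Psmc4* (-1.06), *Cox6a2* (-0.44), *Mmut* (-0.27), *Cyp2d10* (0.090), *Cyp4f13* (0.084), *Vcl* (0.15), *Rpl6* (0.078), *Eif4b* (1.41), *Ahsg* (0.13), *Myh1* (-1.03) and *Prss2* (-0.054), all log2. Without scaling they were *Sod2* (-0.16), *Gstk1* (-0.21), *Mmut* (-0.076), *Gcgr* (-0.12), *Csnk1d* (-0.24), *Dcn* (-0.17), *Eng* (-0.044) and *Ctrl* (-0.057), and without mice 16 and 17 *Psmc4* (-0.094). No paired analysis was possible because the labels number the mice of each group apart and tie none to a mouse of another group.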
